A study of Mus musculus with 8 samples.

Results

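The genes described here are Cyp2b and Cyp2c members of the mouse cytochrome P450 superfamily, followed in livers of AIM-deficient and wild-type mice on normal chow and through high-fat feeding. The set holds 10 genes, 3 of the Cyp2b subfamily (Cyp2b9, Cyp2b10, Cyp2b13) and the rest of the Cyp2c subfamily (Cyp2c29, Cyp2c37, Cyp2c38, Cyp2c39, Cyp2c50, Cyp2c54, Cyp2c55), and all array probes carrying one of these names were taken. Of the 10 genes, 9 had such a probe, with 14 probes among the 41174 of the array. No probe carried the name Cyp2c50, although the second Cyp2c37 probe also lists its transcript. All 9 genes passed the filter on low signal, as members of the 15031 genes that were tested.

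Total liver RNA was hybridised to 8 one-colour Agilent arrays, 1 for each genotype at each time. The AIM KO mice are AIM-/- and the WT mice AIM+/+, both on a C57Bl/6 background. AIM, encoded by Cd5l, is a protein secreted by tissue macrophages that circulates in blood. Both genotypes were sampled on normal chow, counted as 0 weeks, and after 6, 12 and 20 weeks of high-fat diet. The labels give neither the animals' sex and age nor how many livers went into an array, so age and weeks of diet cannot be told apart. All KO arrays lay on a slide of their own and all WT arrays on the other, so genotype and slide cannot be told apart either, and the position on the slide followed the week.

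Cytochrome P450 enzymes of these subfamilies are haem proteins of the endoplasmic reticulum that oxidise drugs, steroids and fatty acids with electrons delivered by cytochrome P450 reductase (Por). Cyp2b10 is the standard marker of activation of the nuclear receptor CAR (Nr1i3) in mouse liver, and several Cyp2c genes also respond to CAR and to the related receptor PXR (Nr1i2). Cyp2b9 and Cyp2b13 are known as female-predominant genes of mouse liver, controlled by the sex pattern of growth hormone release. Some Cyp2c enzymes, though not all, are expressed without an inducer in hepatocytes. Cyp2c enzymes can convert arachidonic acid to epoxides and hydroxylated fatty acids, and Cyp2c39 also hydroxylates retinoic acid.

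The promoters of the 3 Cyp2b genes are shown because these genes had closely alike signal over the arrays, and those of Cyp2c29 and Cyp2c38 because these genes went opposite ways on the diet. Each run is the 250 bases before the RefSeq gene start in build GRCm38.p6, written 5′ to 3′ on the gene's strand, with every AGGTCA in capitals. AGGTCA is the core motif of nuclear receptor binding sites, and it was searched on both strands. Promoters were found for 9 of the 10 genes.
Cyp2b9: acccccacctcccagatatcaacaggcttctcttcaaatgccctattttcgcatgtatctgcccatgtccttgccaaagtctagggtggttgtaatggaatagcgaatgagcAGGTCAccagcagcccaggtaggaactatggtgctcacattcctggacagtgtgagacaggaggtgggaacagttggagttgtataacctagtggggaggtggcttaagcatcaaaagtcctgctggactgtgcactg
Cyp2b13: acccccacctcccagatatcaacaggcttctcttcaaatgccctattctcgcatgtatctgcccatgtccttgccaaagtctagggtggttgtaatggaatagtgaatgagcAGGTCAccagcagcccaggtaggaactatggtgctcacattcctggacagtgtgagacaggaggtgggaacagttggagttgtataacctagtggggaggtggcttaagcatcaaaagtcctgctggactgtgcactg
Cyp2b10: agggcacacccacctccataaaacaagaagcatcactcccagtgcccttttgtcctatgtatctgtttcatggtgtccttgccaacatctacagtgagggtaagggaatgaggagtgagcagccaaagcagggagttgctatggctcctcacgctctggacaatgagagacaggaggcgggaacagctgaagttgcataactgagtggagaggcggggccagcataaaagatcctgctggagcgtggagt
Cyp2c29: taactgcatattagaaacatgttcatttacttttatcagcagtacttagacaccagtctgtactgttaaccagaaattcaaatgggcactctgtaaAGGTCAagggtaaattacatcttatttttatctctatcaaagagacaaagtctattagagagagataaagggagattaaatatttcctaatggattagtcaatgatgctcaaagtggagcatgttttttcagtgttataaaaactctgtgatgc
Cyp2c38: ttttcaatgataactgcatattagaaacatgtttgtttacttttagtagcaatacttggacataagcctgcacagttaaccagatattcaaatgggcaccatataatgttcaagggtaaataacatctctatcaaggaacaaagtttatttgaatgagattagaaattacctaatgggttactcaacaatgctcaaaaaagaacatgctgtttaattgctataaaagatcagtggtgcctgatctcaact
The windows lie at chr7:26173159-26173408 (plus strand) for Cyp2b9, chr7:26061245-26061494 (plus strand) for Cyp2b13, chr7:25897408-25897657 (plus strand) for Cyp2b10, chr19:39286835-39287084 (plus strand) for Cyp2c29 and chr19:39463076-39463325 (minus strand) for Cyp2c38. Cyp2b9 and Cyp2b13 were identical at 248 of 250 positions, and the substitutions from Cyp2b9 to Cyp2b13 were T48C and C104T, counted from 1 at the 5′ end of the window. Cyp2b10 was identical to either of them at 182 of 260 aligned columns, 70.0%. An AGGTCA began 138 bases before the start in both Cyp2b9 and Cyp2b13 and 154 bases before it in Cyp2c29, and the windows of Cyp2b10 and Cyp2c38 did not hold these letters. Of the 9 genes with a promoter, 4 held the motif, among them 1 of the 2 starts listed for Cyp2c39, and 14.0% of all 32851 promoters of this length did. TATAAA, the TATA box, occurred in Cyp2c29, Cyp2c38 and Cyp2c55 and in 12.4% of all promoters. TTCNNNGAA, the element bound by STAT factors, was in 0 of the 9 and in 7.02% of all promoters. A match or its absence is only a description of these letters in this window, and bases farther from the start were not searched.

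Signal is given on a scale on which the 75th percentile of each array is 100, and a probe counts as detected on an array where the scanner software marked it well above background. Between 18586 and 21119 probes were so marked per array. Cd5l, the gene removed, was at 32.0, 46.2, 60.8 and 45.1 on the KO arrays at 0, 6, 12 and 20 weeks and at 4150, 8534, 10770 and 7471 on the WT arrays. The hepatocyte marker list had 5 tested genes of 6 listed, and all 5 were detected on every array. None of the pancreas or kidney markers was tested. The 20-week arrays of both genotypes stood apart from the other 6 in sex-linked transcripts. Ddx3y, a Y-linked gene, was at 1.61 on the KO and 1.96 on the WT 20-week array, against 364 to 592 on the other 6, and Eif2s3y and Kdm5d, also Y-linked, were detected on those 6 alone. Xist, the transcript of the inactive X chromosome, was at 269 on the KO and 283 on the WT 20-week array. It was also detected at 54.6 on the KO 6-week and 23.6 on the WT 12-week array, both of which carried Y-linked signal, and not on the other 4. Xist without Y-linked signal, as on the 20-week arrays, is the pattern of female tissue. The labels do not give sex, so week 20 and the sex of the animals cannot be told apart. Any bearing of sex on the Cyp2b signal of the KO 6-week array was not tested. The diet fit is also given without the 20-week arrays.

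**Figure D1:**
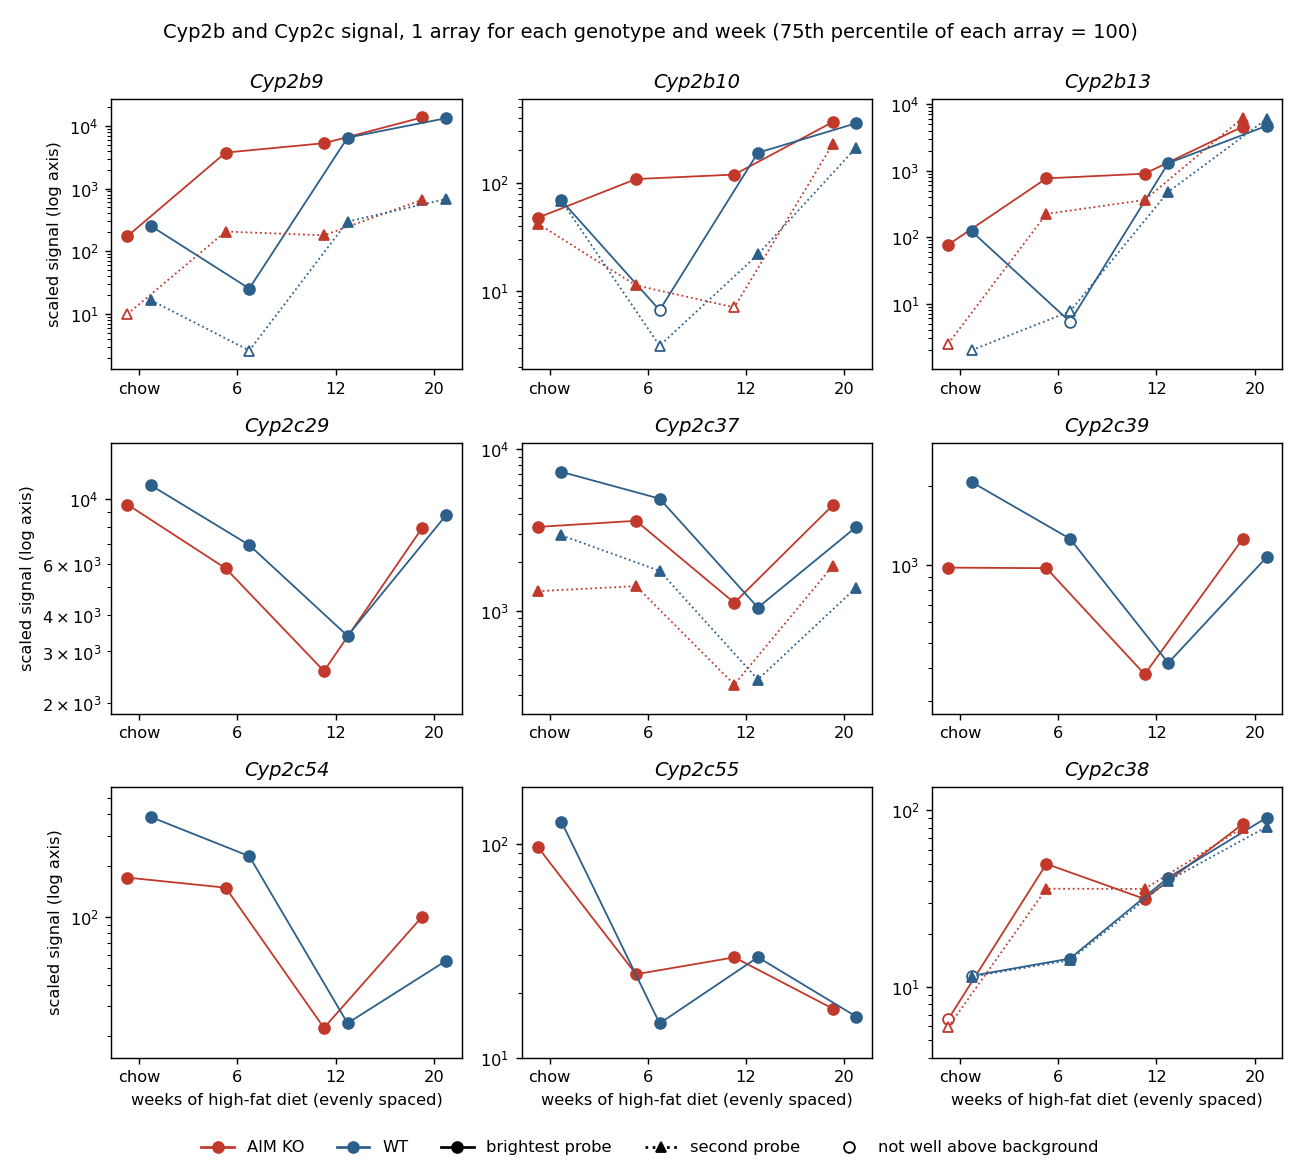
Scaled signal of the 9 measured genes by week of diet, AIM KO in red and WT in blue, 1 array per point, on log axes that differ between panels; circles are the brightest probe, triangles the second, and open symbols were not well above background. On the brightest probe the WT 6-week array is the lowest point of Cyp2b9, Cyp2b10 and Cyp2b13, and the 12-week arrays are the lowest points of Cyp2c29, Cyp2c37, Cyp2c39 and Cyp2c54.

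The Cyp2b genes covered wide ranges of signal. Cyp2b9, at a probe at chr7:25919348-25919407 in mm8, was at 174.0 on the KO and 252 on the WT chow array. At 6 weeks it was at 3744 in KO and 25.4 in WT, at 12 weeks at 5275 in KO and 6479 in WT, and at 20 weeks at 13627 in KO and 13201 in WT. In KO livers each later time was thus higher than the one before, and in WT livers the 6-week array was below chow. The second Cyp2b9 probe, at chr7:25907225-25907284, was likewise lowest in WT at 6 weeks and highest at 20 weeks, but its KO signal was lower at 12 than at 6 weeks, with 9.94, 206, 179 and 661 in KO and 16.5, 2.61, 297 and 679 in WT at 0, 6, 12 and 20 weeks. It was not well above background on the KO chow and WT 6-week arrays. The annotation of the brighter probe also lists a Cyp2b10 transcript, so its signal may include both genes, whereas the second probe lists Cyp2b9 alone.

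Cyp2b13, the gene most like Cyp2b9, was measured by a probe at chr7:25797498-25804454 that also lists transcripts of Cyp2b9, Cyp2b10 and Cyp2b23. It was at 76.7, 765, 899 and 4609 in KO livers and at 122, 5.35, 1297 and 4703 in WT livers at 0, 6, 12 and 20 weeks, and the WT 6-week array was not well above background. A second probe, at chr7:25804646-25804705, lists Cyp2b13 alone. There the signal was 2.48, 223, 363 and 6238 in KO and 1.998, 7.62, 479.7 and 5969 in WT, with both chow arrays and the WT 6-week array not well above background. On that probe the mean of the 6 diet arrays was at least 43.9-fold above chow, a bound set against the lowest detected signal of the chow arrays, although the WT 6-week array was itself not detected. The 6-week KO array stood with the 12-week arrays on both probes, and the WT 6-week array stood with chow or below it.

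Cyp2b10, the CAR marker, was lower and its probes disagreed. At chr7:25626158-25634828 it was at 47.9, 109, 119.8 and 365 in KO and at 69.3, 6.71, 190.4 and 357 in WT at 0, 6, 12 and 20 weeks, with the WT 6-week array not well above background. At chr7:25625797-25625856 it was at 42.2, 11.4, 7.12 and 228 in KO and at 68.7, 3.15, 21.9 and 213 in WT, with the KO 12-week and WT 6-week arrays not well above background. On the brighter probe the 12-week arrays were above chow, and on the other they were below chow. Both probes had their highest signal at 20 weeks and their lowest in WT at 6 weeks.

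Cyp2c29, an epoxygenase of arachidonic acid, was measured at chr19:39382463-39382522. It was at 9575, 5783, 2570 and 7964 in KO and at 11138, 6952, 3394 and 8779 in WT at 0, 6, 12 and 20 weeks. The KO array was below the WT array at all 4 times, and in both genotypes the signal was lowest at 12 weeks. Cyp2c37, which hydroxylates arachidonic acid, was at 3309, 3611, 1122 and 4498 in KO and at 7254, 4952, 1048 and 3307 in WT at chr19:40065288-40065347. Its second probe, at chr19:40055260-40055319, which also lists Cyp2c50, gave the same order of times in each genotype, with 350 in KO and 375 in WT at 12 weeks.

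Cyp2c39, the retinoic acid hydroxylase (chr19:39621389-39621448), was at 975, 970.0, 379 and 1260.2 in KO and at 2077, 1258, 419.6 and 1068 in WT at 0, 6, 12 and 20 weeks. Cyp2c54, an epoxygenase close to Cyp2c37 (chr19:40100940-40123521), was at 170.0, 148, 22.4 and 100.5 in KO and at 385, 227, 23.8 and 55.2 in WT. Both 12-week arrays were below the other 6 for Cyp2c29, Cyp2c37, Cyp2c39 and Cyp2c54, as for 10.8% of all genes. The WT chow array was the highest of the 8 for these 4 and for Cyp2c55, against 14.0% of all genes.

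Cyp2c55, known chiefly from the colon, was not higher at 20 than at 12 weeks in either genotype. At chr19:39107228-39107287 it was at 96.5, 24.5, 29.4 and 16.9 in KO and at 127, 14.4, 29.4 and 15.5 in WT, so all 6 diet arrays lay below both chow arrays, as they did for Cyp2c29 and for 10.6% of all genes. Cyp2c38, which also oxidises arachidonic acid, went the other way. At chr19:39458094-39489404 it was at 6.58, 49.8, 31.6 and 83.9 in KO and at 11.6, 14.5, 41.7 and 90.9 in WT, and the second probe, at chr19:39443259-39443318, stayed between 5.94 and 80.6. All 6 diet arrays of Cyp2c38 lay above both chow arrays, as for 10.6% of all genes. The chow arrays were not well above background on the brighter probe, and the mean of the diet arrays was there at least 3.77-fold above chow, with the WT 6-week array the lowest of them at 14.5.

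Over the 8 arrays the log2 signal spanned 9.07 for Cyp2b9, at least 8.81 for Cyp2b13 and at least 5.12 for Cyp2b10, the bounds being set against the detection limit of the WT 6-week array. Of the Cyp2c genes, 5 spanned 2.12 (Cyp2c29) to 4.11 (Cyp2c54), and Cyp2c38, whose brighter probe was not detected on chow, at least 2.96. The median span of all genes was 0.81, and 13.0% of them spanned more than Cyp2c29. With 1 array for each genotype and time, neighbouring levels of a gene have no spread of their own against which to order them.

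The effect of the diet was asked of all 8 arrays together, as the mean of 6, 12 and 20 weeks minus chow, with limma on log2 signal and the week and the genotype as terms. Because no group was repeated, the error of this fit comes from how unlike the genotypes were in their courses over time, and whether arrays come from separate animals is known only from the word biological in the labels. In bulk liver, fewer cells of a type and less RNA per cell cannot be told apart. Of the 9 genes, 2 fell and none rose at an adjusted p under 0.05, against 2.56% of all genes called in either direction and 0.865% lower. Cyp2c55 fell by 2.41 on the log2 scale (SE 0.24, adjusted p = 0.0311) and Cyp2c29 by 0.94 (SE 0.11, adjusted p = 0.0396). With normexp background correction Cyp2c38 also passed, at a smaller coefficient of 1.03 (adjusted p = 0.0319), and among genes detected on all 8 arrays Cyp2c54 also passed, lower on the diet (adjusted p = 0.0347).

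The remaining Cyp2c genes did not pass. Cyp2c54 had a coefficient of -1.91 (SE 0.40, adjusted p = 0.0741), Cyp2c37 of -0.91 (SE 0.32, adjusted p = 0.167) and Cyp2c39 of -0.83 (SE 0.27, adjusted p = 0.145), and Cyp2c38 one of 2.33 (SE 0.52, adjusted p = 0.0812). The Cyp2b coefficients had the widest errors of the 9. Cyp2b9 had 3.79 (SE 1.67, adjusted p = 0.234), Cyp2b13 had 2.82 (SE 1.69, adjusted p = 0.348) and Cyp2b10 had 0.98 (SE 0.996, adjusted p = 0.564). Cyp2b10's other probe gave -1.08. The median coefficient was 2.82 over the 3 Cyp2b genes and -0.92 over the 6 Cyp2c genes, and -0.02 over all genes.

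**Figure D2:**
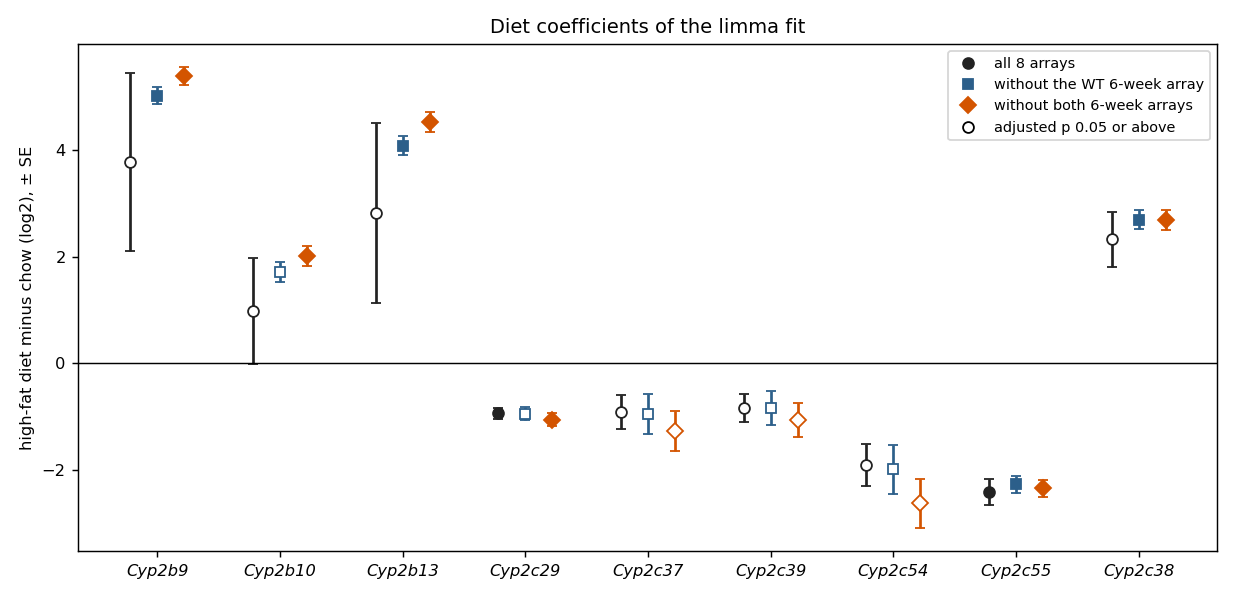
Diet coefficients (log2, high-fat diet minus chow) with their standard errors from limma, for all 8 arrays, without the WT 6-week array and without both 6-week arrays; filled symbols have an adjusted p under 0.05. The Cyp2b errors are smaller in the fits without 6-week arrays, which leave out the difference between the genotypes at that week. Cyp2b9 is at 5.40 (SE 0.16) without both.

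The Cyp2b calls depended on the 6-week arrays. Without both of them 6 of the 9 genes passed, against 3.88% of all genes, 2.62% higher and 1.26% lower. Cyp2b9 (5.40, SE 0.16, adjusted p = 0.0275), Cyp2b13 (4.53, SE 0.18, adjusted p = 0.0275), Cyp2b10 (2.02, SE 0.19, adjusted p = 0.0370) and Cyp2c38 (2.69, SE 0.19, adjusted p = 0.0277) were then higher on the diet, and Cyp2c29 and Cyp2c55 lower. Without the WT 6-week array alone 4 passed, against 0.838% of all genes, 0.585% of them higher. Cyp2b9 at 5.03 (SE 0.16), Cyp2b13 at 4.09 (SE 0.18) and Cyp2c38 at 2.70 (SE 0.19) were higher and Cyp2c55 lower. None of the 9 passed when any other single array was left out, nor any of all 15031 genes in those fits. Without the 20-week pair, which carries the difference in sex-linked transcripts, 0 of the 9 and 0 of all genes passed in limma, with coefficients of 2.68 (SE 1.90) for Cyp2b9, 1.44 (SE 1.93) for Cyp2b13, -1.25 (SE 0.13) for Cyp2c29 and -2.23 (SE 0.28) for Cyp2c55. Ddx3y, Eif2s3y and Kdm5d were themselves called lower by diet in the fit of all 8 arrays, with Ddx3y at -2.96 (adjusted p = 0.0229).

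The AIM KO livers were next compared with WT at each time, 1 array against 1, without a test. The Cyp2b genes stood apart between the genotypes at 6 weeks. Cyp2b9 was 147-fold higher on the KO than on the WT 6-week array, and its second probe at least 19.6-fold. Cyp2b13 was at least 72.8-fold higher on the shared probe and at least 21.2-fold on its own probe. Cyp2b10 was at least 10.4-fold higher on the brighter probe and at least 1.08-fold on the other, and Cyp2c38 was 3.43-fold higher. These 4 genes of 9 were at least 2-fold apart, all higher in KO, and 6.53% of all genes were, with 3.03% higher in KO.

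On chow, 3 of the 9 were at least 2-fold apart, against 7.24% of all genes, and all 3 were lower in KO, as 4.3% of all genes were. Cyp2c37 was 2.19-fold, Cyp2c39 2.13-fold and Cyp2c54 2.26-fold lower on the KO than on the WT chow array. At 12 weeks 0 of the 9 were at least 2-fold apart, with 4.46% of all genes, and at 20 weeks 0 of the 9, with 4.03%. Cyp2b9 was 1.23-fold lower in KO at 12 weeks and 1.03-fold higher at 20 weeks. On the brightest probes the Cyp2b genes were thus at least 2-fold apart at 6 weeks and not at 12 or 20 weeks, while the second Cyp2b10 probe was at least 2.06-fold lower in KO at 12 weeks. Whether it differs between weeks was not tested, because each week holds 1 array per genotype.

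**Figure D3:**
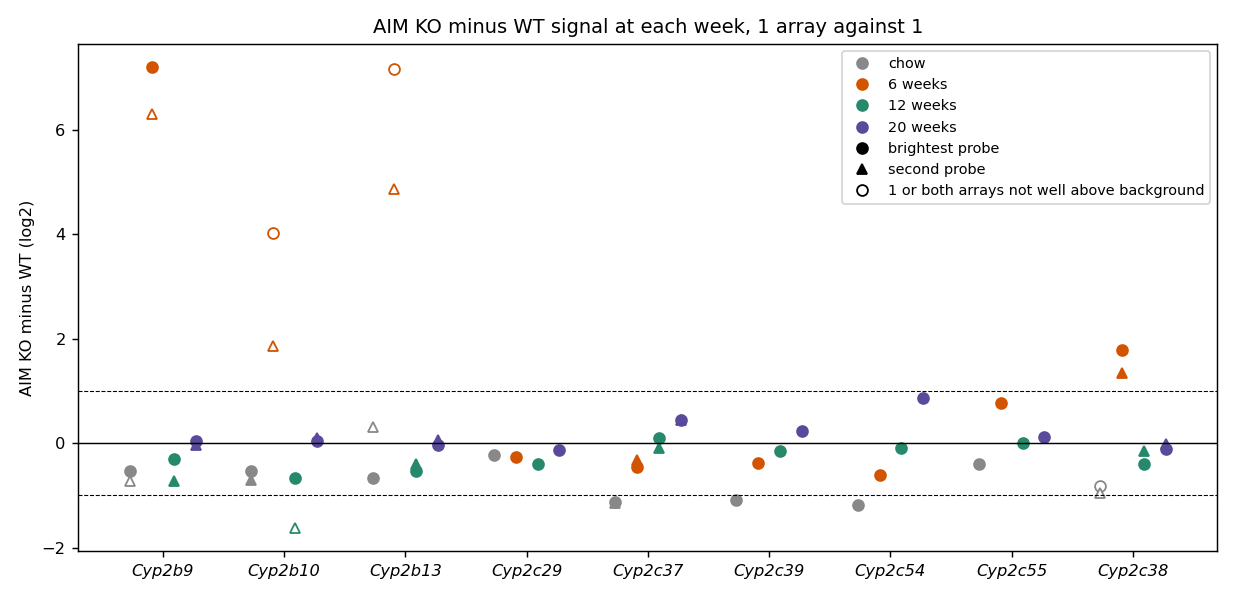
AIM KO minus WT log2 signal for each gene and week, 1 array against 1; circles are the brightest probe, triangles the second, open symbols have an array not well above background, and dashed lines mark 2-fold. Cyp2b9, Cyp2b10, Cyp2b13 and Cyp2c38 lie above the upper line at 6 weeks, and Cyp2c37, Cyp2c39 and Cyp2c54 lie below the lower line on chow.

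The 6-week KO array was also set against the other 7. It lay inside their range for all 9 genes, while 17.9% of all genes lay outside it. The WT 6-week array was below the other 7 for Cyp2b9, Cyp2b10, Cyp2b13 and Cyp2c55, against 8.86% of all genes. Against the other 5 arrays of chow, 6 and 12 weeks, the KO 6-week array was outside the range for 1 of the 9. It was so for 3973 of all genes. The 1 gene was Cyp2c38, at 49.8 where the highest of the others was 41.7.

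Over all 4 times no gene of the 9 passed the genotype test in limma (KO minus WT), and 0.0333% of all genes did. The coefficients were 1.60 (SE 1.45) for Cyp2b9, 1.48 (SE 1.47) for Cyp2b13 and 0.71 (SE 0.86) for Cyp2b10. Cyp2c29 was at -0.26 (SE 0.09, adjusted p = 0.869) and was lower in KO at all 4 times. The test of whether the diet effect differed between KO and WT called 0 of the 9 and 0% of all genes. Its coefficients were 2.87 (SE 5.11) for Cyp2b13 and 2.85 (SE 4.77) for Cyp2b9. In this fit the weeks of diet stand as replicates and each genotype has 1 chow array. Changes between weeks therefore count as error, and these errors exceed the coefficients. The fit thus cannot decide whether the diet effect differed.

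The last weeks of feeding were compared as 20 minus 6 and 20 minus 12 weeks. In both contrasts the 20-week arrays also differ in the sex-linked transcripts, which cannot be told apart from the week. Both 20-week arrays were above the other 6 for Cyp2b9, Cyp2b10, Cyp2b13 and Cyp2c38, as for 7.36% of all genes. For 20 minus 6 weeks 0 of the 9 passed in limma at an adjusted p under 0.05, with 0.113% of all genes called. Cyp2b13 had 6.18 (SE 2.07) and Cyp2b9 5.44 (SE 2.05). Without the KO 6-week array both passed, at 9.97 for Cyp2b13 and 9.18 for Cyp2b9 (adjusted p = 0.0207 for each), and 0.0200% of all genes did; without the WT 6-week array neither did. For 20 minus 12 weeks 0 of the 9 passed at that threshold, with 0.113% of all genes called. Cyp2c29 was at 1.501 (SE 0.13, adjusted p = 0.0544), Cyp2c37 at 1.83, Cyp2c54 at 1.69 and Cyp2c39 at 1.54, all 4 higher at 20 than at 12 weeks in both genotypes. With normexp background correction Cyp2c29 passed, at 1.64 (adjusted p = 0.0113).

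Cholangiocyte markers moved with the 20-week arrays. Krt19, Krt7 and Epcam were all detected on both of them, and their summed signal was 10.1, 54.6, 74.1 and 136 in KO and 34.3, 12.7, 18.7 and 217 in WT at 0, 6, 12 and 20 weeks. Their part in the 20-week signal of Cyp2b9, Cyp2b10, Cyp2b13 and Cyp2c38 was not tested.

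The genes whose signal was most like that of a member were found by Pearson correlation of log2 signal over the 8 arrays, among 5836 genes that varied by at least 1 on that scale. The points share their slides and scaling, so the coefficients are a description. Nearest to Cyp2b9 were Cyp2b13 (0.99), Nav1 (0.97), Igsf10 (0.96), Sod3 (0.96) and Parvb (0.96). Nearest to Cyp2b10 were Cyp2b13 (0.99), A230066D03Rik (0.98), Plxnd1 (0.96), Clec14a (0.96) and Lpcat1 (0.96). Several of these neighbours were dim over the 8 arrays. Parvb was at 2.18 to 11.1 and Sod3 at 5.55 to 16.2. A230066D03Rik was at 2.57 to 13.0, Clec14a at 2.77 to 16.4 and Lpcat1 at 2.25 to 16.7. The lowest detected signal was 7.72 to 11.7 over the arrays, so these coefficients rest partly on undetected signal. Probes of Cyp2b9 and Cyp2b13 list transcripts of their relatives, which bears on the coefficients among the Cyp2b genes. Nearest to Cyp2c29 were Gsto1 (0.98), Asl (0.97), Afmid (0.97), Ahcy (0.97) and Sec14l3 (0.96). Between members, Cyp2c29 was at 0.93 with Cyp2c39, 0.90 with Cyp2c37 and 0.82 with Cyp2c54, and at -0.38 with Cyp2b9. Cyp2c38 was at 0.87 with Cyp2b9 and at -0.27 with Cyp2c29.

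The receptors and partner enzymes of these P450s did not pass the diet test. Of 10 nuclear receptors and cofactors 0 were called, beside 2.56% of all genes, a share at which so short a list may well hold none. Their median coefficient was -0.12, against -0.02 over all genes. Nr1i3 (CAR) had a coefficient of 0.37 (SE 0.22, adjusted p = 0.340) and Nr1i2 (PXR) of 0.21 (SE 0.23, adjusted p = 0.588). Nr0b2, the repressor SHP, had the largest in size, -0.81 (adjusted p = 0.116). Of 9 genes of electron transfer and haem supply 0 were called, beside the same share of all genes. Por had a coefficient of 0.09 (SE 0.41, adjusted p = 0.907), with a level of 6826 on the KO and 15725 on the WT 6-week array, the opposite order to Cyp2b9. Alas1, the rate-limiting enzyme of haem synthesis, stood likewise at 6293 in KO and 16937 in WT at 6 weeks.

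None of the diet calls of other genes given from here on passed without the 20-week pair, where 0 of all genes did, and the share of all genes to set beside them is 2.56% called, 0.865% lower. Of 19 other genes known to respond to CAR or PXR, 1 rose and 1 fell on the diet. Abcb1a, a drug efflux pump, rose by 1.54 (SE 0.16, adjusted p = 0.0362), though it was detected on the 20-week arrays alone, at 16.1 in KO and 15.1 in WT, and its diet mean was not above the detection limit on chow. Ces2a, a carboxylesterase, fell by 2.13 (SE 0.19, adjusted p = 0.0288). The list's median coefficient was -0.16. Gsta2, a glutathione transferase, had -2.02 (adjusted p = 0.0713) and Cyp1a2 -1.58 (adjusted p = 0.0799). At 6 weeks Gsta2 was at 847 in KO and 175 in WT, and it was higher in KO at the other 3 times too. Of the 10 other Cyp2b and Cyp2c genes listed, 3 were tested and 1 fell. Cyp2c44, another epoxygenase, fell by 1.91 (SE 0.26, adjusted p = 0.0460). It was at 12504, 4299, 1992 and 2198 in KO and at 9431, 7702, 2093 and 1911 in WT at 0, 6, 12 and 20 weeks, with no return at 20 weeks. Cyp2c70, which hydroxylates bile acids in mice, had -1.59 (adjusted p = 0.0706), and Cyp2c40 had -0.23 (adjusted p = 0.410).

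Genes that differ between male and female liver were examined because Cyp2b9 and Cyp2b13 are among those known to. Of 17 tested male-biased genes 3 fell on the diet and none rose, and 16 had a negative coefficient, with a median of -1.29, against -0.02 over all genes. Slco1a1, an organic anion transporter, fell by 5.18 (SE 0.39, adjusted p = 0.0245), Susd4 by 1.95 (SE 0.29, adjusted p = 0.0488) and Gstp1 by 1.29 (SE 0.15, adjusted p = 0.0396). Hsd3b5, a steroid dehydrogenase of male liver, had -7.53 (SE 1.43, adjusted p = 0.0651). It was at 2624, 51.0, 2.78 and 9.03 in KO and at 5894, 4270, 3.098 and 5.39 in WT at 0, 6, 12 and 20 weeks. Hsd3b5 was not well above background on the 12-week arrays and the WT 20-week array, so the size of its coefficient rests on undetected signal. Its KO 6-week array was nearer to the 12-week arrays and its WT 6-week array nearer to chow, as for Cyp2b9 and Cyp2b13 with the opposite sign. Slco1a1 was at 311 in KO and 1023 in WT at 6 weeks.

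Of 16 tested female-biased genes 2 rose and 3 fell on the diet, with a median coefficient of 1.12, against -0.02 over all genes. Both that rose were undetected on chow. A1bg, detected on the 20-week arrays alone, rose by 3.12 (at least 1.79-fold against the detection limit) and Hao2, a peroxisomal oxidase detected at 12 and 20 weeks, by 3.57 (at least 2.77-fold), while Cyp3a44 fell by 1.59, Cyp3a16 by 1.39 and Cyp3a41a by 1.19. For 20 minus 12 weeks all 16 coefficients were positive, with a median of 2.06, against -0.005 over all genes. Of the 16, 2 rose, against 0.113% of all genes called in either direction. They were A1bg, by 8.69 (SE 0.27, adjusted p = 0.00247), and the transcription factor Cux2, by 5.24 (adjusted p = 0.0390). Neither was detected at 12 weeks, and against the detection limit A1bg was at least 94.9-fold and Cux2 at least 7.77-fold higher at 20 weeks. A1bg was at 1262 on the KO and 845 on the WT 20-week array and between 1.997 and 3.45 on the other 6. The list's median log2 signal, relative to each gene's mean, was -0.21, -0.82, -0.52 and 2.06 in KO and -1.27, -1.01, -0.48 and 2.21 in WT at 0, 6, 12 and 20 weeks. The list's median stood highest at 20 weeks. Cyp2b9 and Cyp2b13 were above chow on 3 of the 4 arrays of 6 and 12 weeks. At 12 weeks Ddx3y was 368 in KO and 406 in WT, and Xist was detected at 23.6 in WT and not in KO. Cyp2b9 was then 5275 in KO and 6479 in WT, against 174.0 in KO and 252 in WT on chow. Xist was also detected at 54.6 on the KO 6-week array. Any bearing of the animals' sex on the Cyp2b signal was not tested.

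**Figure D4:**
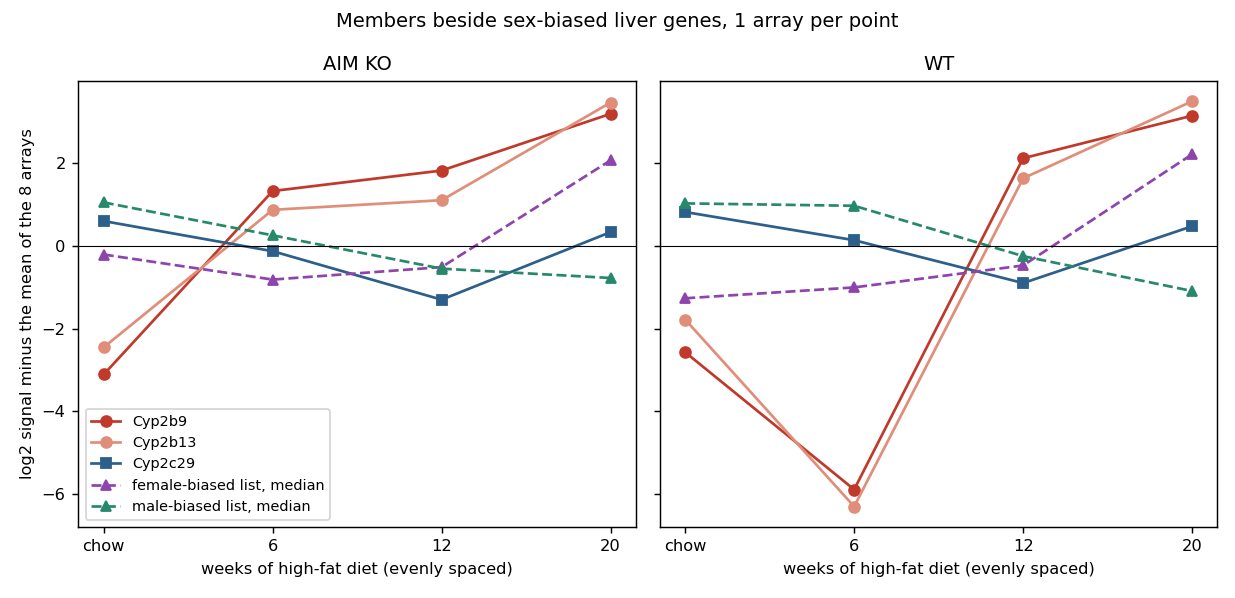
Log2 signal minus the mean of the 8 arrays for Cyp2b9, Cyp2b13 and Cyp2c29 (brightest probe) and the median of the female-biased (16 genes) and male-biased (17 genes) lists, by week, AIM KO left and WT right, 1 array per point. The female-biased median is at 2.06 in KO and 2.21 in WT at 20 weeks and below 0 at every earlier time, while Cyp2b9 is above 0 at 12 weeks in both genotypes and at 6 weeks in KO.

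Hepatocyte zones were described because these P450s are known to be most abundant near the central vein. Of 12 pericentral genes 0 were called by diet, with a median coefficient of 0.21. Glul, glutamine synthetase, had 1.47 (SE 0.25, adjusted p = 0.0558). Of 11 tested periportal genes 3 fell and none rose, with a median of -0.93, against -0.02 over all genes. Hal, histidine ammonia lyase, fell by 1.59 (SE 0.19, adjusted p = 0.0405), Ass1, of the urea cycle, by 1.09 (SE 0.15, adjusted p = 0.0459) and Cyp2f2 by 0.74 (SE 0.11, adjusted p = 0.0484).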

How the data were processed

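Liver total RNA of AIM KO and WT mice was labelled with Cy3 and hybridised to Agilent arrays, per the labels' protocols, and scanned with Feature Extraction 9.5, per the submitters' processing notes (9.5.3.1 per the file headers). The deposited scanner files hold intensity per spot, and the processed signal used here is background-subtracted by the scanner software, per the file headers. The authors' deposited value table holds log2 values, whose normalization is not given in the sources used here. Its columns correlated at 0.999866 or more with the log2 scaled signal used here, with column medians of -3.60 to -3.42.

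After removal of control spots (1639 per array) and outlier spots (75 to 130), replicate spots were averaged by probe, and each array's 75th percentile was subtracted from log2 signal. Probes well above background on at least 2 of 8 arrays were kept, with the brightest probe per gene name. limma 3.58.1 in R 4.3.3 was fitted over all genes, with week and genotype as terms (3 residual degrees of freedom), or genotype by diet for the interaction (4). P-values were adjusted by Benjamini-Hochberg over all genes. The fitting steps were run on simulated data with independent noise and known shifts. Such data lack the undetected signal and sex-linked differences of these arrays, so that run cannot show whether the calls here hold. An at-least fold sets the brighter mean against the lowest signal well above background. The number of arrays limits the precision. Probe coordinates are mm8, per the file headers, and promoters RefSeq's GRCm38.p6; identity was computed with Biopython 1.88.

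All members were named; the genes most alike were the 5 with the highest correlation, and from the 8 lists those past the threshold, up to 4 with the largest coefficient, Nr1i3, Nr1i2 and Por. Members, lists and tests were chosen with earlier results of these data known. The alternatives tried were normexp, quantile normalization, the deposited table, other filters, other probe rules and leaving out arrays or pairs.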

Additional observations from a re-analysis of the deposited data

Results flagged for a closer look

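The second Cyp2b10 probe, at chr7:25625797-25625856 in mm8, had AIM KO minus WT log2 differences of opposite sign at 2 single weeks. The difference was 1.85 at 6 weeks, with a scaled signal of 11.4 in KO and 3.15 in WT, and -1.62 at 12 weeks, with 7.12 in KO and 21.9 in WT. Counting from the lowest signal well above background, KO was at least 1.08-fold above WT at 6 weeks and at least 2.06-fold below it at 12 weeks. The difference between the weeks was not tested, since each week holds 1 array per genotype. Of 28 sets of 4 arrays (14 probes in each genotype), 0 had an array set apart from the other 3 by more than Dixon's critical value. The 4 arrays of a set are different times and not repeats, so the chance rate of that limit does not hold. The rule cannot tell an odd array from a change over time.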

How the results depend on the processing

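With normexp Cyp2c38's diet coefficient was 1.03, against 2.33. The number of the 9 genes called by diet, 2 in the fit of all arrays, was 0 with no filter on dim probes, and between 0 and 6 when single arrays or pairs of 1 week were left out. Over the same alternatives the diet calls among all genes were 385 in the fit as described, 25 with no filter, 903 with probes detected on all 8 arrays, 701 with normexp, 251 with quantile normalization, 249 with every probe as a feature and 255 with the mean of probes. Calls for 20 minus 6 weeks ranged from 0 to 2 when arrays were left out, and normexp gave 1 call for 20 minus 12 weeks. All-gene calls for 20 minus 6 weeks were 17, against 85 with normexp, 36 with every probe, 26 with the mean of probes, 36 with detection on all 8 arrays and 7 with no filter. Those for 20 minus 12 weeks were 17, against 10, 26, 28, 1 and 8 in the same order. Genotype calls were 5, against 3 with detection on all 8 arrays and 1 in each fit that left out arrays, and interaction calls 0, against 107 with no filter. With arrays left out, all-gene calls were 0 to 583 for diet, 0 to 8 for 20 minus 6 weeks and 1 to 12 for 20 minus 12 weeks. For genotype and interaction the 9 genes gave 0 calls under every alternative run. At 6 weeks 2 of the 9 were at least 2-fold apart with signal on both arrays, beside 481 of all genes. At 1.5-fold 1 of the 9 was apart at 12 weeks, beside 1640 of all genes, and 1 at 20 weeks, beside 1476. Against 5 arrays, 1 of the 9 was outside the range on the KO 6-week array, beside 3973 of all genes. Cyp2b10's diet coefficient turned to -1.08 with its other probe and -0.04997 with the mean of both; the cause was not tested. The count of 4 genes lowest on the WT 6-week array was added after seeing the data, and was 3 to 4 under its alternatives. By replicate number, no paired analysis was possible because every array is numbered 1; pairing by week is part of the genotype fit, which has the week as a term. Low signal limits Cyp2b10, Cyp2b13 and Cyp2c38 on the arrays where they were not well above background.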
